A study of Mus musculus with 10 samples.

Results

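The 10 genes described here are the brakes and the first accelerators of the cell cycle: 6 inhibitors of cyclin-dependent kinases (CDKs), *Cdkn1a*, *Cdkn1b*, *Cdkn1c*, *Cdkn2a*, *Cdkn2c* and *Cdkn2d*, the retinoblastoma gene *Rb1*, and the D cyclins *Ccnd1*, *Ccnd2* and *Ccnd3*. They were taken by symbol from the 34590 genes listed in each of 10 bulk RNA-seq libraries, and all 10 were found. The libraries came from handpicked cochlear cells of 5 cell types, with 2 libraries of each. Reads were counted per gene by the study, and levels are given here as CPM, counts set relative to the library total and scaled with TMM factors, which correct for differences in composition between libraries.

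D cyclins bind CDK4 and CDK6 and start the phosphorylation of the retinoblastoma protein, which otherwise holds E2F transcription factors inactive and keeps the cell out of S phase. The INK4 inhibitors, encoded by *Cdkn2a*, *Cdkn2c* and *Cdkn2d*, block CDK4 and CDK6, whereas the Cip/Kip inhibitors, encoded by *Cdkn1a* (p21), *Cdkn1b* (p27) and *Cdkn1c* (p57), bind a wider range of cyclin-CDK complexes. Hair cells and supporting cells of the mammalian cochlea leave the cell cycle before birth and stay out of it, and p27, p19Ink4d (the product of *Cdkn2d*) and the retinoblastoma protein are known to take part in holding them there.

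The SCs were supporting cells of Fgfr3iCreER+ mice with the Cre-dependent Rosa26-CAG- loxP-stop-loxP-tdTomato+ reporter, labelled P27 (replicate 12) and P26 (replicate 11). The cHCs (P33, replicates 13 and 16) were converted hair cells of mice that carried the same driver and reporter, together with Atoh1-HA+ and alpha9 AChR-EGFP+. By the study's methods, the mice of both groups received tamoxifen in the second postnatal week, the driver acts in Deiters' and pillar cells, and cHCs were picked by tdTomato together with the EGFP that the hair cell gene *Chrna9* drives, so that only cells that had switched on this gene entered the cHC libraries. The OHCs (P7, replicates 15 and 14) and the OHCs (P22, replicates m21_387 and f22_391) were labelled as cells of prestin-YFPYFP/+ mice, although the study's own account of the mice gives a tamoxifen-inducible prestin Cre driver with tdTomato for the P7 cells. The IHCs (replicates m74_389 and m75_395) came from Pval-Cre+ mice with the tdTomato reporter at P74 and P75, the oldest of the 5 groups. Replicates are named by the numbers or endings of their sample titles. The study calls both libraries of a cell type biological duplicates, and the ages given for the SC, OHC (P22) and IHC pairs differ by 1 day. Read as days, the numbers 21 and 22 in the OHC (P22) titles differ from the ages in the study's mouse table, which are later. The labels do not say how many mice were pooled for a library.

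The count file of 4 of the 10 samples was attached to the record of another sample. Files were therefore assigned by the sample title that each one carries, and a fit of the files as attached was kept as an alternative. The libraries held 15016129 to 40518766 reads on genes, so that 1 count was worth 0.0247 to 0.0666 CPM before TMM scaling, and counting error is the only error that this limit covers. Replicate m21_387 of OHCs (P22) stood apart in its TMM factor, 0.583 against 0.930 to 1.20 in the other 9 libraries. Library numbers form 2 series, from 11 to 16 in SCs, cHCs and OHCs (P7) and from m21_387 to m75_395 in OHCs (P22) and IHCs. A difference between cell types across these series cannot be told apart from one between the series themselves. Within the first series, the titles of SC replicate 12, cHC replicate 13 and OHC (P7) replicate 15 carry a further sample number that those of the other 3 libraries lack. The 3 libraries with it held 15016129 to 22597688 reads and the 3 without it 33162033 to 40518766, and a fit with these sets as a term was added after the data were seen. The cell types also differed in age and mouse line. *Atoh1*, which the transgene and the endogenous gene both provide, was at 364 and 1812 CPM in cHCs, at 0.267 and 1.91 CPM in SCs and at 0 in OHCs (P22) and IHCs. The summed level of 10 hair cell markers was 365 CPM in both SC libraries and 4122 to 7811 CPM in the other 8, and that of 10 supporting cell markers was 1662 to 2104 CPM in SCs. *Slc26a5*, the prestin gene of OHCs, was at 1061 to 3789 CPM in the 4 OHC libraries and at most 97.6 CPM elsewhere, and *Slc17a8*, the glutamate transporter gene of IHCs, was at 1907 and 1763 CPM in IHCs and at most 75.5 CPM elsewhere. Of the 10 members, 8 passed edgeR's filter on low counts and were tested, and *Cdkn2a* and *Cdkn2c* did not.

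A joint test of the 5 cell types called 4 of the 8 tested members, *Cdkn1a*, *Cdkn1b*, *Cdkn1c* and *Cdkn2d*, at an adjusted p under 0.05, where 7.81% of all 16891 tested genes were called. *Cdkn1a* and *Cdkn1b* were lowest in OHCs (P22), *Cdkn1c* was high in cHCs and near 0 elsewhere, and *Cdkn2d* was lowest in SCs and highest in IHCs. *Rb1*, *Ccnd1*, *Ccnd2* and *Ccnd3* were not called in this test. The joint calls of *Cdkn1b* and *Cdkn1c* were kept in all 10 fits that left out 1 library. *Cdkn1a* was lost without OHC (P22) replicate f22_391 (adjusted p = 0.0611) and with limma-voom, the method of the study, and *Cdkn2d* was kept in 2 of these fits, without OHC (P22) replicate m21_387 or f22_391, and lost in the other 8 (adjusted p at most 0.0826) and with the sets of libraries as a term.

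**Figure D1:**
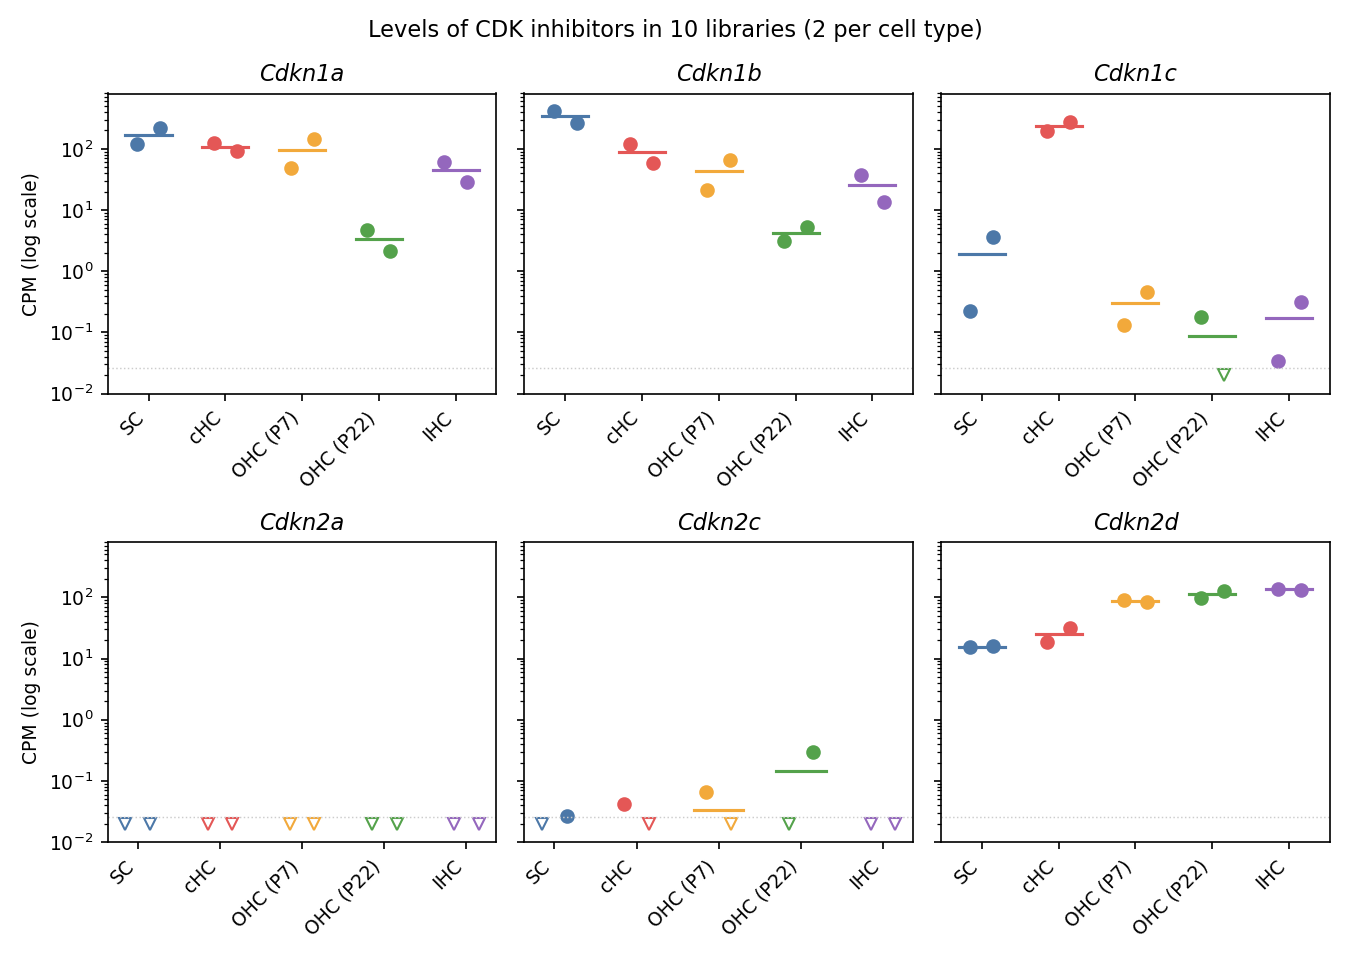
Levels of the 6 CDK inhibitors in CPM on a log axis, with 1 point per library and a horizontal line at the mean of the 2 libraries of each cell type; open triangles under the dotted line are libraries with 0 counts, and means under that line are not drawn. *Cdkn1a* and *Cdkn1b* are lowest in the OHC (P22) libraries, *Cdkn1c* is above 100 CPM in the 2 cHC libraries alone, *Cdkn2a* has no counts and *Cdkn2d* is lowest in SCs.

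The promoters of the genes whose levels moved across cell types are shown here as far as RefSeq (GRCm38.p6) lists them, from 250 bases before to 50 bases after the start of transcription. *Cdkn1a* and *Cdkn1b* are shown because their levels went together, and *Cdkn2d* because its level ran the other way. Capitals mark the GC box GGGCGG, searched on both strands, the letters that Sp-family factors are known to recognise, which occur in 35.7% of 32851 promoters of this length. The windows are chr17:29093519-29093818 (+) for the downstream start of *Cdkn1a*, chr6:134920151-134920450 (+) for *Cdkn1b* and chr9:21291160-21291459 (-) for *Cdkn2d*, in GRCm38.p6 and not in the mm9 build of the counts.
Cdkn1a promoter: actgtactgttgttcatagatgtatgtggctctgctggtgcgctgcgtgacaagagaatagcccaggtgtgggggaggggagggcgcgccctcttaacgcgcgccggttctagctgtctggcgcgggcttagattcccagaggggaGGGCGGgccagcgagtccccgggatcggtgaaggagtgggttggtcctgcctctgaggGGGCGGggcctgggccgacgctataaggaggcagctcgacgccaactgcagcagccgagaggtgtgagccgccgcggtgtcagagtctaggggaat
Cdkn1b promoter: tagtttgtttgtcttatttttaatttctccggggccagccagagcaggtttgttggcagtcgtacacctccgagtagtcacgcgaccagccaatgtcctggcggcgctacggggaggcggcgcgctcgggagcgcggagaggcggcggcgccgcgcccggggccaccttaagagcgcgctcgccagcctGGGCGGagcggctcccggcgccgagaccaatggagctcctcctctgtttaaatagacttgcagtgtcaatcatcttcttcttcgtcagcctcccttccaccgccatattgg
Cdkn2d promoter: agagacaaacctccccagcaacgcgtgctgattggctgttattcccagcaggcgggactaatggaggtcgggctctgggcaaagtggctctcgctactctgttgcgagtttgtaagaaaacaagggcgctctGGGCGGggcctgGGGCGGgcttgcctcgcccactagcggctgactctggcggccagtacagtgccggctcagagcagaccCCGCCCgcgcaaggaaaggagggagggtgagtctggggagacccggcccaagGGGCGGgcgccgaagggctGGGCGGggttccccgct
The *Cdkn1a* window holds 2 GC boxes, the *Cdkn1b* window 1 and the *Cdkn2d* window 5. The E boxes CAGCTG (in 16.3% of promoters) and CAGATG (17.2%), which factors of the Atoh1 kind can bind, the E2F letters TTCCCGC (4.60%) and TTTCGCGC (0.323%), and TATAAA (8.32%) are in none of these 3 windows. The 3 windows hold 64.7%, 62.0% and 66.3% G and C, against a median of 52.7% over all promoters. The window of the upstream start of *Cdkn1a* holds 1 CAGCTG. RefSeq windows were found for 6 of the 10 members.

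*Cdkn1b* (ENSMUSG00000003031, chr6:134870419-134875531 on mm9, + strand) encodes p27, the inhibitor whose onset marks cell cycle exit in the developing organ of Corti. It was at 408 and 267 CPM in SCs, 121 and 57.6 CPM in cHCs, 20.9 and 65.9 CPM in OHCs (P7), 3.17 and 5.26 CPM in OHCs (P22) and 36.7 and 13.7 CPM in IHCs. Both SC libraries were above all 8 others, and both OHC (P22) libraries were below all others. cHCs overlapped OHCs (P7), and OHCs (P7) overlapped IHCs. The level in OHCs (P22) fell by 6.31 ± 0.95 (SE) on the log2 scale from that in SCs (adjusted p = 0.00240), and it fell by 4.39 ± 0.87 from that in cHCs (adjusted p = 0.0206). IHCs were below SCs as well, by a log2 fold change of -3.74 ± 0.84 (adjusted p = 0.0406). The call against SCs in OHCs (P22) was kept in all 10 fits that left out 1 library (adjusted p at most 0.0165). The other calls were not: without replicate m21_387 of OHCs (P22) the adjusted p against cHCs was 0.117 and without cHC replicate 13 it was 0.0502. It was 0.134 with limma-voom (log2 fold change -4.19) and 0.0740 with only the compared libraries (-4.44). Likewise, the IHC difference had an adjusted p of 0.126 and 0.0517 without SC replicates 12 and 11, and of 0.0680 and 0.208 without IHC replicates m74_389 and m75_395, and of 0.0580 with the sets of libraries as a term. Between cHCs and SCs, the 4 libraries did not overlap, with a log2 fold change of -1.92 ± 0.77, but the difference was not called (adjusted p = 0.287). Limma-voom alone of the 20 alternatives called it (-2.02, adjusted p = 0.0384). OHCs (P7) lay below SCs without overlap, by -2.96 ± 0.81, and missed the threshold (adjusted p = 0.0775). Limma-voom (0.0332), DESeq2 (0.00296), no filter on low counts (0.00918) and at least 10 counts in every library (0.0396) called that difference. RLE factors (0.0699), upper-quartile factors (0.0783), only the compared libraries (0.0872) and the sets of libraries as a term (0.117) did not.

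*Cdkn1a* (ENSMUSG00000023067, chr17:29227924-29237667, +) encodes p21, the inhibitor that p53 is known to induce. Its level was 120 and 222 CPM in SCs, 123 and 90.4 CPM in cHCs, 48.9 and 142 CPM in OHCs (P7), 4.67 and 2.15 CPM in OHCs (P22) and 61.2 and 28.2 CPM in IHCs. The OHC (P22) libraries lay below all 8 others, while SCs, cHCs and OHCs (P7) overlapped each other. The level in OHCs (P22) was lower than in SCs (log2 fold change -5.66 ± 0.91, adjusted p = 0.00386), cHCs (-4.97 ± 0.88, adjusted p = 0.0134) and OHCs (P7) (-4.82 ± 0.88, adjusted p = 0.0461). The calls against SCs and cHCs were kept in all 10 fits without 1 library (adjusted p at most 0.0187 and 0.0456), and the call against OHCs (P7) was lost without OHC (P7) replicate 14 (adjusted p = 0.134) and without either OHC (P22) library (0.135 without m21_387 and 0.0765 without f22_391). Outside these fits, the call against cHCs was lost with limma-voom (-5.06, adjusted p = 0.0817) and with only the compared libraries (-5.01, 0.0509), and the call against OHCs (P7) was lost with limma-voom (adjusted p = 0.179), RLE factors (0.0559), only the compared libraries (0.152) and the sets of libraries as a term (0.0612). IHCs, which share the library series of OHCs (P22), were 3.72 ± 0.83 higher on the log2 scale and missed the threshold (adjusted p = 0.0588). The difference between cHCs and SCs was -0.68 ± 0.75 (adjusted p = 0.731).

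*Cdkn1a*, *Cdkn1b* and the summed markers of supporting cells were all highest on average in SCs and lowest in OHCs (P22). The order between these differed. From OHCs (P7) to IHCs the mean fell from 95.6 to 44.7 CPM for *Cdkn1a* and from 43.4 to 25.2 CPM for *Cdkn1b*, with overlapping libraries. The marker sum, in contrast, was higher in IHCs. The summed level of the 10 supporting cell markers, in CPM, was 826 to 1163 in cHCs, 92.8 to 303 in OHCs (P7), 5.05 to 19.3 in OHCs (P22) and 946 to 1118 in IHCs, and of the 10 genes, 10 had counts in each SC and cHC library and 8 in each OHC (P22) library, where *Sox2* and *Fabp7* were at 0. The marker sum of IHCs was nearly that of cHCs, but different genes made it up. In cHCs, *Fgfr3* (458 and 431 CPM) and *Prox1* (247 and 293 CPM) were above both SC libraries. In IHCs, *Gjb2*, the gene of connexin 26 (611 and 468 CPM), and *Slc1a3* (243 and 193 CPM) were, while *Fgfr3* was at 17.3 and 0 CPM. No other marker of the list was above both SC libraries in both libraries of either cell type. Fibroblast markers summed to 705 to 812 CPM in SCs, 16.4 to 196 in cHCs, 53.2 to 403 in OHCs (P7), 3.09 to 3.37 in OHCs (P22) and 39.2 to 130 in IHCs, and *Col1a1*, *Col1a2* and *Col3a1* were at 0 in SC replicate 11. The part of these cells in the levels of *Cdkn1a* and *Cdkn1b* was not tested. The OHC (P22) libraries also had the highest share of reads outside annotated features, 46.1% and 50.4% against 26.5% to 41.8% in the others, and replicate m21_387 had the most unaligned reads (25.5%) and the fewest genes with a count (14332). The part of these in the low levels was not tested. In bulk libraries, a smaller share of cells that carry a transcript and less of it per cell cannot be told apart.

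**Figure D2:**
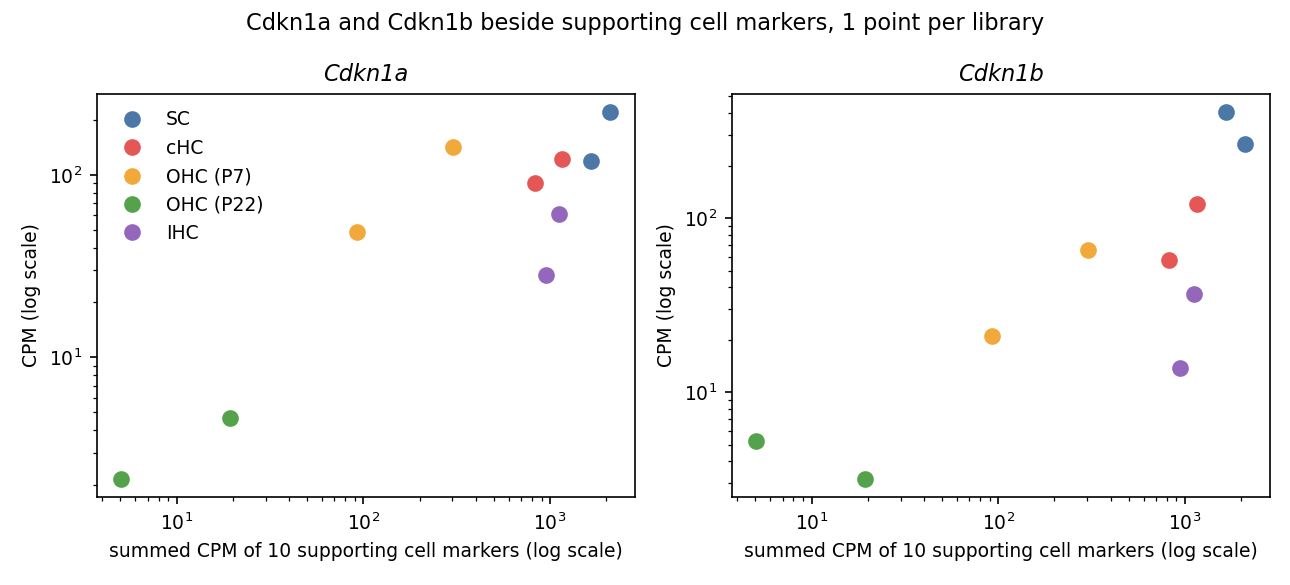
Level of *Cdkn1a* and *Cdkn1b* (CPM, log axis) against the summed level of 10 supporting cell markers (CPM, log axis), with 1 point per library coloured by cell type. The OHC (P22) libraries are lowest on both axes and the SC libraries are highest in markers, while IHCs lie near cHCs in markers and below them in both genes.

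*Cdkn1c* (ENSMUSG00000037664, chr7:150644255-150646955, -) encodes p57, the third Cip/Kip inhibitor, and is an imprinted gene. It was at 196 and 275 CPM in cHCs, from 4614 and 10808 counts. The other libraries held 0.222 and 3.56 CPM (SCs), 0.134 and 0.464 CPM (OHCs (P7)), 0.176 and 0 CPM (OHCs (P22)) and 0.0337 and 0.309 CPM (IHCs). The highest of these 8 values, in SC replicate 11, came from 134 counts, and all 8 lay far below both cHC libraries. The log2 fold change was 6.95 ± 1.66 against SCs (adjusted p = 0.0676) and -9.53 ± 1.86 for OHCs (P7) against cHCs (adjusted p = 0.0692), both within the first library series and both short of the threshold. Against the second series it was called, with -11.66 ± 2.09 for OHCs (P22) minus cHCs (adjusted p = 0.0137) and -10.39 ± 1.93 for IHCs minus cHCs (adjusted p = 0.0295). The OHC (P22) call was kept in all 10 fits without 1 library (adjusted p at most 0.0397), and the IHC call was lost without cHC replicate 16 (adjusted p = 0.0803) or IHC replicate m74_389 (0.117). These fitted values rest on very few counts in the lower group. In pooled counts the ratio of cHCs to OHCs (P7) was 666 (95% exact interval 426 to 1106, from 19 counts), that to IHCs 1442 (784 to 3008, from 10 counts) and that to OHCs (P22) 4303 (1191 to 35537, from 2 counts), with counting error only.

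Whether these 2 differences passed the threshold varied between fits. The one between cHCs and SCs was called in 11 of 19 alternatives. These were limma-voom (log2 fold change 7.91, adjusted p = 0.0164), DESeq2 (7.01, adjusted p = 3.53e-06), no filter on low counts (7.05, adjusted p = 3.27e-06), the sets of libraries as a term (7.83, adjusted p = 0.0431), leaving out SC replicate 11 (10.02, adjusted p = 0.0389), the SC library with the higher *Cdkn1c*, and leaving out any 1 of the 6 OHC (P7), OHC (P22) and IHC libraries (6.91 to 7.04). On counts simulated with dispersions that edgeR had estimated, most DESeq2 calls were of genes that had not been changed, and edgeR and limma-voom missed most changed genes. The difference was not called with only the compared libraries (adjusted p = 0.0857), RLE factors (0.0672) or upper-quartile factors (0.0566), or without SC replicate 12 (0.169), cHC replicate 13 (0.0684) or cHC replicate 16 (0.215). Within the set of libraries with a further sample number the level was 0.222 CPM in SCs and 196 CPM in cHCs, and within the other set 3.56 and 275 CPM. The difference between OHCs (P7) and cHCs was also called in 11 of 19 alternatives, and without a cHC or OHC (P7) library its adjusted p was 0.0659 to 0.213. With the files as attached to the records, which place a cHC file among the SCs and an OHC (P7) and an SC file among the cHCs, the difference between cHCs and SCs turned to -5.71.

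As a family, the Cip/Kip genes differed in which member prevailed. Their summed level per kilobase of exon was 144 and 160 CPM per kb in SCs, 183 and 195 in cHCs, 26.7 and 78.7 in OHCs (P7), 2.89 and 2.12 in OHCs (P22) and 35.6 and 15.9 in IHCs. *Cdkn1c* made up 55.5% and 72.7% of this sum in cHCs and at most 3.16% in any other library. *Cdkn1b* made up 62.4% and 36.5% in SCs and 14.5% and 6.47% in cHCs. *Cdkn1a* was the largest part in both libraries of OHCs (P7), at 82.5% and 81.3%, and of IHCs, at 77.3% and 80.1%.

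**Figure D3:**
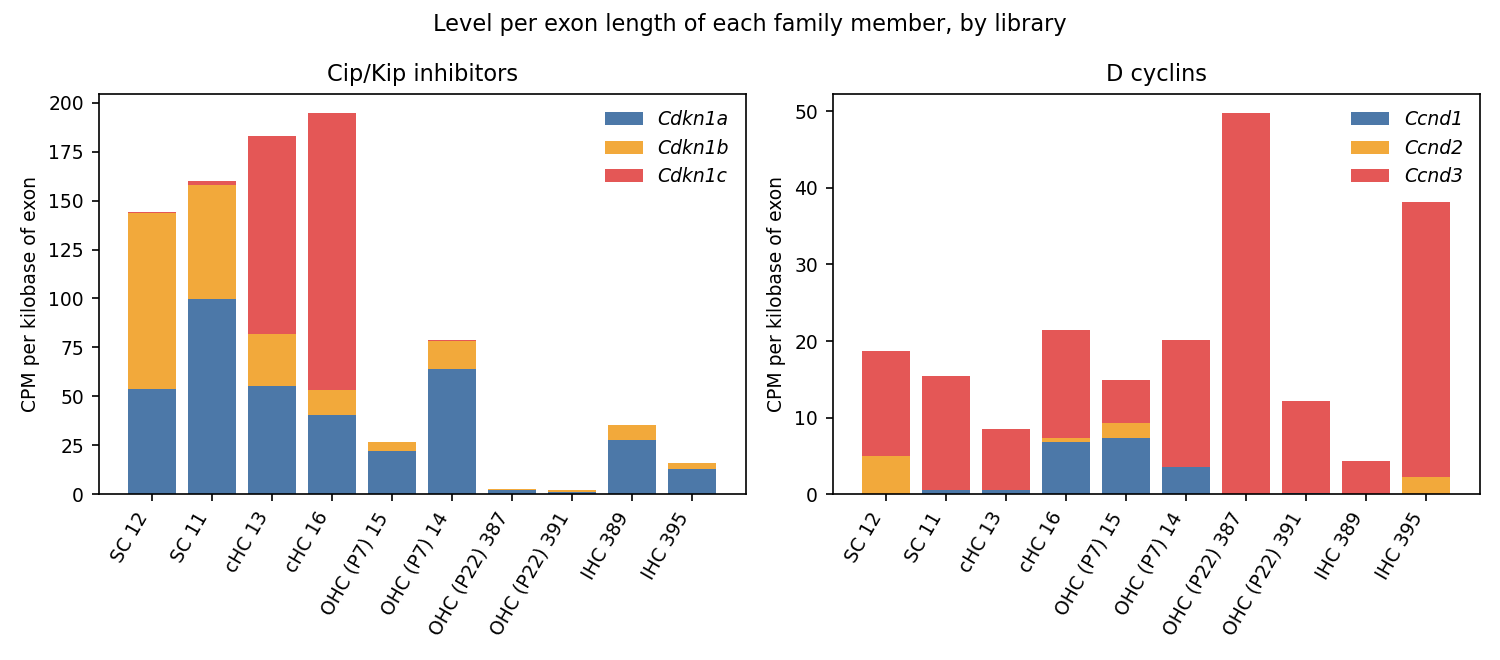
Summed level of the Cip/Kip inhibitors (left) and the D cyclins (right) in CPM per kilobase of exon, with 1 bar per library stacked by gene. *Cdkn1c* fills over 50% of the cHC bars, the OHC (P22) bars are near 0 for Cip/Kip genes, and *Ccnd3* is the largest D cyclin in 9 of 10 libraries.

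Among the INK4 genes, *Cdkn2d* was the only member with more than 7 counts in any library. *Cdkn2a* (ENSMUSG00000044303, chr4:88920377-88940557, -), which encodes p16Ink4a and p19Arf and is known to rise in senescent cells, had 0 counts in all 10 libraries, where 3 counts would have been 0.0762 to 0.264 CPM. *Cdkn2c* (ENSMUSG00000028551, chr4:109333481-109339794, -), which encodes p18, had 7 counts in OHC (P22) replicate f22_391, 1 count in each of SC replicate 11, cHC replicate 13 and OHC (P7) replicate 15, and 0 in the other 6 libraries.

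*Cdkn2d* (ENSMUSG00000066860, chr9:21092907-21095653, -) was higher in OHCs (P22) and IHCs than in SCs. It was at 15.4 and 15.9 CPM in SCs, 18.8 and 31.5 CPM in cHCs, 89.0 and 84.0 CPM in OHCs (P7), 97.0 and 126 CPM in OHCs (P22) and 138 and 131 CPM in IHCs. No 2 cell types overlapped, and the cHC libraries lay between those of SCs and those of OHCs (P7), nearer to SCs. The level was higher than in SCs by 2.83 ± 0.64 on the log2 scale in OHCs (P22) (adjusted p = 0.0210) and by 3.10 ± 0.64 in IHCs (adjusted p = 0.0279). In OHCs (P7) it was 2.46 ± 0.63 above SCs, short of the threshold (adjusted p = 0.0601). The cHCs did not differ from SCs beyond error (0.68 ± 0.60, adjusted p = 0.640), and the differences of OHCs (P7), OHCs (P22) and IHCs from cHCs, of 1.78 ± 0.61, 2.14 ± 0.62 and 2.42 ± 0.63, were not called (adjusted p = 0.336, 0.0946 and 0.129). Both calls against SCs were lost in fits that left out single libraries. With only the compared libraries the adjusted p was 0.106 for OHCs (P22) and 0.0625 for IHCs. Without SC replicate 12 or 11 it was 0.104 or 0.0947 for OHCs (P22) and 0.142 or 0.132 for IHCs, and the IHC call was also lost without IHC replicate m74_389 (0.131) or m75_395 (0.109) and without OHC (P7) replicate 15 (0.0602) or 14 (0.0530). The log2 fold changes in these fits were 2.80 and 2.85 for OHCs (P22) and 3.06 to 3.17 for IHCs.

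The reads of *Cdkn2d* cannot be told apart from those of a near-identical gene. A minimap2 search of the mm9 genome with its transcript found *Gm4694* at chr9:123836860-123839608 (+), with the same intron and 1270 of 1271 bases equal. The only difference is G471A, with positions counted from 1 at the 5′ end of the *Cdkn2d* transcript, in the coding part (bases 261 to 758). The 30 bases around it, with the differing base in capitals, show how little a read has to separate both genes by.
Cdkn2d, transcript bases 456 to 485: agccccaatgtccaaGatgcctccggtact
Gm4694, the same stretch: agccccaatgtccaaAatgcctccggtact
*Gm4694* had counts in every library, between 0.777 and 0.942 of those of *Cdkn2d*, and ran with it, from 13.2 CPM in the lower SC library to 116 CPM in the higher IHC library. With the counts of both genes added and fitted as one, a choice made after the data were seen, the log2 fold change was 2.81 ± 0.54 in OHCs (P22) (adjusted p = 0.00923) and 3.06 ± 0.54 in IHCs (adjusted p = 0.0118) against SCs, and OHCs (P7) were then called as well (2.41 ± 0.53, adjusted p = 0.0317). *Cdkn2d* in this text therefore stands for either gene. A processed copy of *Ccnd3* on chromosome 4, *Ccnd3-ps*, had at most 1 count in a library. The transcripts of the other members aligned to their own locus alone.

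**Figure D4:**
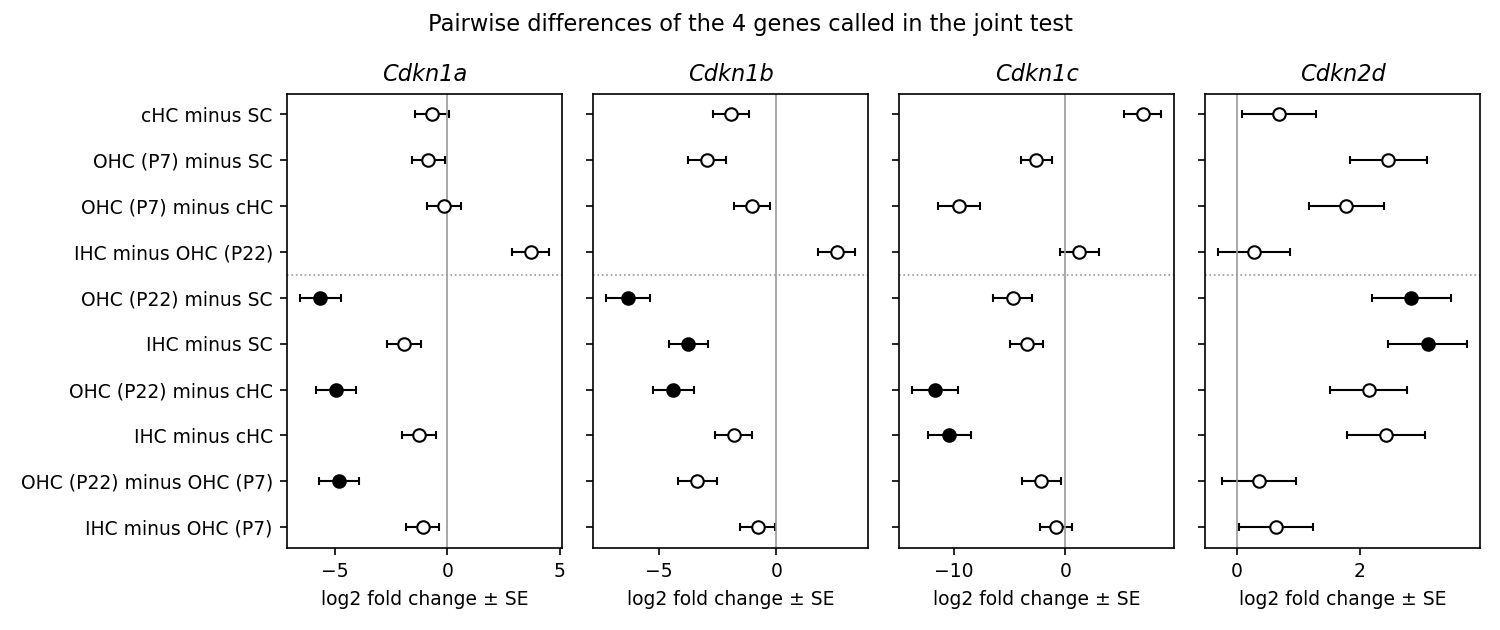
Log2 fold change ± SE (edgeR) of the 4 members called in the joint test, in 10 pairwise comparisons; filled points have an adjusted p under 0.05, comparisons above the dotted line are within a library series, and the horizontal axes differ between panels. All filled points lie below the dotted line, that is, between library series.

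Across the 10 pairwise comparisons, 10 of 80 tests of members were called, and all 10 lay in the 6 comparisons between the library series. OHCs (P22) against SCs gave 3 calls of 8 members, where 8.02% of all genes were called, and OHCs (P22) against cHCs gave 3 calls (3.18% of all genes). IHCs against SCs gave 2 calls (2.65%), and IHCs against cHCs (0.924%) and OHCs (P22) against OHCs (P7) (0.551%) gave 1 each. OHCs (P7) and IHCs (0.379% of all genes) gave 0 calls with edgeR, 1 member at an unadjusted p under 0.05, and 1 call each by limma-voom and DESeq2. Of all 16891 genes, 2112 were at such a p in edgeR, limma-voom called 367 and DESeq2 1330. The 4 comparisons within a series gave 0 member calls and 1192 calls of other genes. In them, cHCs minus SCs (1.84% of all genes called) had 2 members at an unadjusted p under 0.05, with 2 calls by limma-voom and 1 by DESeq2. OHCs (P7) minus SCs (3.41%) had 2 such members, 1 call by limma-voom and 2 by DESeq2. OHCs (P7) minus cHCs (0.343%) had 2, with 1 and 2 calls, and IHCs minus OHCs (P22) (1.46%) had 2, with 0 and 2 calls. Of all 16891 genes, 2532, 3194, 1884 and 2559 were at an unadjusted p under 0.05 in edgeR in these 4 comparisons, in the order given. Limma-voom called 1065, 1172, 378 and 299 of all genes in them, and DESeq2 called 1764, 2682, 1125 and 2042. Comparisons that share a cell type share its libraries.

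*Rb1* (ENSMUSG00000022105, chr14:73583480-73725629, -), whose product restrains E2F, was present in all libraries. Its level was 103 and 32.4 CPM in SCs, 70.3 and 77.1 CPM in cHCs, 112 and 117 CPM in OHCs (P7), 121 and 73.5 CPM in OHCs (P22) and 159 and 134 CPM in IHCs. The IHC libraries were above all others, and the other cell types overlapped except that OHCs (P7) lay above both SCs and cHCs. The difference between IHCs and SCs was 1.12 ± 0.65 on the log2 scale (adjusted p = 0.384), and the joint test gave an adjusted p of 0.610. Exons of *Rcbtb2* and *Lpar6* on the opposite strand cover 14.9% of the exon bases of *Rb1*, and the strand setting of the counting is not given in the sources used here.

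Of the D cyclins, *Ccnd3* (ENSMUSG00000034165, chr17:47642000-47736632, +) was detected in every library, at 30.7 and 33.3 CPM in SCs, 17.9 and 31.8 CPM in cHCs, 12.6 and 37.2 CPM in OHCs (P7), 112 and 27.1 CPM in OHCs (P22) and 9.77 and 80.9 CPM in IHCs. The SC libraries differed 1.09 times, whereas those of IHCs differed 8.29 times and those of OHCs (P22) 4.14 times, and neighbouring cell types overlapped throughout. The joint test gave an adjusted p of 0.747. *Bysl* on the opposite strand shares 15.7% of its exon bases. Per kilobase of exon, *Ccnd3* made up 65.7% to 99.9% of the summed D cyclin level in 9 libraries. In OHC (P7) replicate 15 it made up 37.3%, and *Ccnd1* made up 48.9%.

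*Ccnd1* (ENSMUSG00000070348, chr7:152115836-152125774, -), a target of mitogen signals in many cells, was at 2.13 and 26.4 CPM in cHCs and at 28.0 and 13.8 CPM in OHCs (P7). It was at 0 and 2.20 CPM in SCs, 0.176 and 0.674 CPM in OHCs (P22) and 0 in both IHC libraries. The lower library was at least 134-fold above 3 counts of an IHC library for OHCs (P7) and at least 20.6-fold above it for cHCs. Both OHC (P7) libraries lay above those of SCs, OHCs (P22) and IHCs. The joint test missed the threshold (adjusted p = 0.130), although limma-voom, DESeq2 and the fit without a filter called *Ccnd1* in it. So did the edgeR fit without SC replicate 11, the SC library that alone held *Ccnd1* (83 counts). The log2 fold change was 4.23 ± 2.40 in OHCs (P7) against SCs (adjusted p = 0.359) and -5.58 ± 2.58 in OHCs (P22) against OHCs (P7) (adjusted p = 0.372). *Oraov1* on the opposite strand shares 21.3% of its exon bases.

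*Ccnd2* (ENSMUSG00000000184, chr6:127075797-127101066, -), the third D cyclin, was high in 1 library of a pair and at or near 0 in the other. SC replicate 12 had 28.7 CPM from 647 counts and SC replicate 11 had 0 counts, OHC (P7) replicate 15 had 11.7 CPM from 175 counts and replicate 14 had 0, and IHC replicate m75_395 had 13 CPM from 379 counts and replicate m74_389 had 2 counts. In cHCs it was at 0.213 and 2.64 CPM, and in OHCs (P22) at 0.0882 and 0 CPM. *Ccnd2* was the only member to reach 10 CPM in 1 library of a pair and at most 3 counts in the other, which 2.54% to 6.38% of genes at 10 CPM or more did in the 5 cell types. The joint test gave an adjusted p of 0.601.

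**Figure D5:**
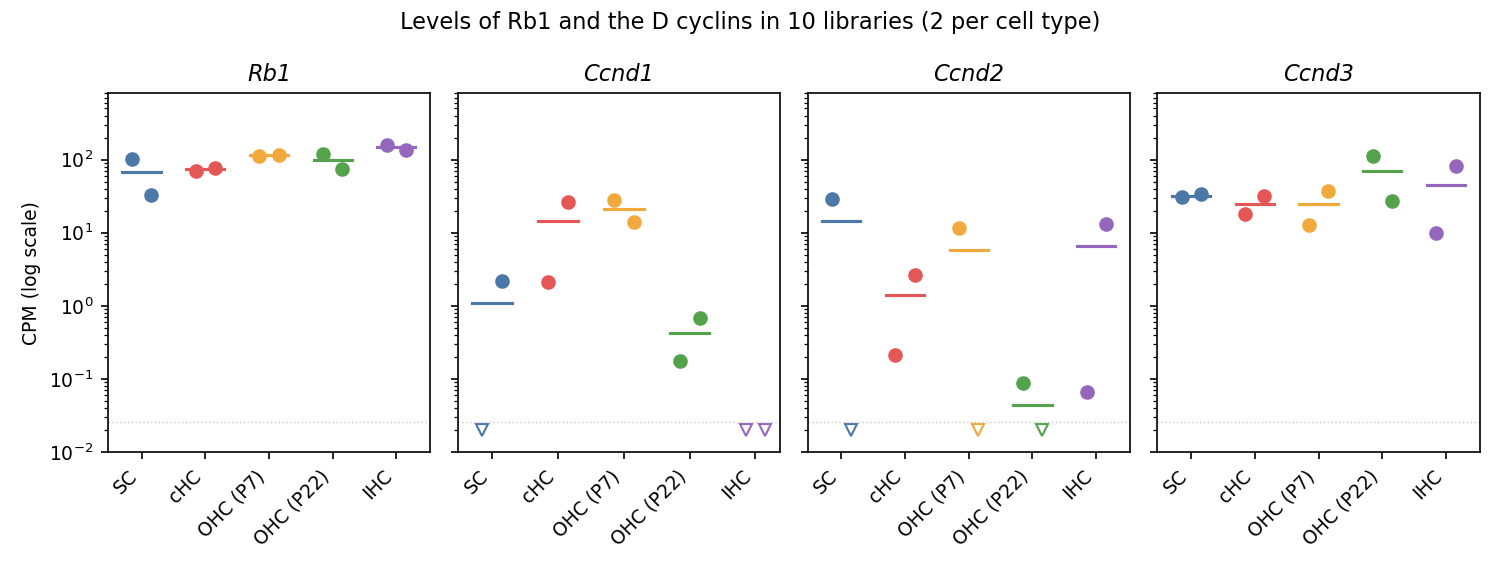
Levels of *Rb1* and the D cyclins in CPM on a log axis, with 1 point per library and a line at the mean of each cell type; open triangles under the dotted line are libraries with 0 counts, and means under that line are not drawn. *Rb1* and *Ccnd3* have counts in all 10 libraries, *Ccnd1* is highest in OHCs (P7) and cHC replicate 16, and *Ccnd2* differs widely between paired libraries.

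Over the other lists of the pathway, the joint test called 2 of 59 tested genes (3.39%, against 7.81% of all genes), and lists this short can hold 0 or 1 call at that share. In edgeR, 4318 of all 16891 genes were at an unadjusted p under 0.05 in this test. No such count over all genes is given here for limma-voom or DESeq2. Their counts for the lists, here and below, therefore cannot be read against a share of all genes. The joint test called 0 of 7 tested kinases and other cyclins (*Cdk1*, *Cdk2*, *Cdk4*, *Cdk6* and the A, B and E cyclins), with 1 at an unadjusted p under 0.05, 0 called by limma-voom and 3 by DESeq2. In the Rb family and E2F list it called 0 of 10 (1 at an unadjusted p under 0.05, 1 by limma-voom, 2 by DESeq2), and among p53 and its targets 0 of 14 (5, 2 and 3). The other inhibitors, *Cdkn2b* and *Cdkn3*, had a summed level of at most 4.97 CPM in any library, and the 1 that could be tested was not called and had an unadjusted p above 0.05 in edgeR, limma-voom and DESeq2.

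Of the 9 genes listed for p27 turnover, the joint test called 1, *Skp1a*, a subunit of SCF ubiquitin ligases (adjusted p = 0.0120). In the list 2 genes were at an unadjusted p under 0.05, 1 was called by limma-voom and 2 by DESeq2. *Skp1a* was at 9424 and 7215 CPM in SCs, 3228 and 720 CPM in cHCs, 1137 and 1344 CPM in OHCs (P7), 674 and 732 CPM in OHCs (P22) and 2594 and 2983 CPM in IHCs. It was lower than in SCs in OHCs (P7) (-2.75 ± 0.57, adjusted p = 0.0249) and OHCs (P22) (-3.56 ± 0.59, adjusted p = 0.00465), while the median log2 fold change of the list was 0.31 in OHCs (P22) minus SCs, against 0.00 over all tested genes. Of 18 tested S and M phase genes, 1 was called, *Aurka*, a mitotic kinase (adjusted p = 0.0247). In edgeR 6 of the 18 were at an unadjusted p under 0.05, as were 4318 of all 16891 genes. In limma-voom 10 were, of which it called 2, while DESeq2 called 4, with no count over all genes to set beside these. *Aurka* was higher in both SC libraries, at 6.93 and 49.7 CPM, than in the cHC libraries, at 0.893 and 1.27 CPM. It was at 0 in OHCs (P22) and IHCs, so that the lower SC library was at least 26.2-fold above 3 counts of an OHC (P22) library. The summed level of all 21 S and M phase genes was 186 to 276 CPM in SCs, 117 to 141 in cHCs, 54.2 to 88.1 in OHCs (P7), 36.2 to 182 in OHCs (P22) and 54.5 to 119 in IHCs.

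A further 4 genes of these lists were called in a single pairwise comparison and are named here after their values were seen. *Ccne1*, which encodes cyclin E1, was at 8.40 and 15 CPM in SCs and at 0 in OHCs (P22) (adjusted p = 0.0468), but at 46.8 CPM in IHC replicate m74_389. *Tfdp1*, an E2F partner, was at 60 and 57.0 CPM in OHCs (P7) and at 0.0888 and 1.25 CPM in SCs (6.42 ± 1.48, adjusted p = 0.0398). *Btg2*, a p53 target that slows proliferation, was lower in OHCs (P22), at 0.0882 and 6.78 CPM, than in SCs, at 70.1 and 716 CPM (-6.81 ± 1.58, adjusted p = 0.0240). *Mdm2*, the ligase that degrades p53, was higher in OHCs (P22), at 597 and 250 CPM, than in cHCs, at 78.3 and 57.7 CPM (2.64 ± 0.58, adjusted p = 0.0341). *Btg2* shared the direction of *Cdkn1a*, another p53 target, against SCs, and *Mdm2* had the direction opposite to that of *Cdkn1a* against cHCs. *Mdm2*, which is also in the p53 list, was on average higher in OHCs (P22) than in SCs as well (423 against 116 CPM, not called). Genes of the list thus went both ways, and the activity of p53 was not tested.

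The genes most like each called member over the 10 libraries were found by Pearson's r of log2 CPM, given as a description. They were *Zfhx4* (r = 0.980), *Ptprk* (0.979) and *Sh3pxd2b* (0.966) for *Cdkn1a*, and *Arpc2* (0.989), *Smagp* (0.966) and *Mgst1* (0.961) for *Cdkn1b*. For *Cdkn1c* they were *Figf* (0.978), *Naip5* (0.977) and *Igll1* (0.973), each at 30.5 CPM or more in both cHC libraries and at most 2.63 CPM in the others. For *Cdkn2d* they were its copy *Gm4694* (0.997), *Tuba8* (0.985) and *Gm20554* (0.982), and *Tuba8* was at 209 to 290 CPM in OHCs (P22) and at most 0.940 CPM in SCs and cHCs. Among the members, *Cdkn1a* and *Cdkn1b* were the most alike (r = 0.90), and *Cdkn1b* and *Cdkn2d* the most opposed (-0.83). The libraries of a cell type are not independent points in these values.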

How the data were processed

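The authors picked the cells by hand, amplified their cDNA (Ovation RNA-Seq System V2), sequenced paired ends, trimmed adapters, mapped the reads to mm9 with STAR and BWA and counted them per gene with HTSeq. The submitters' processing notes also name CASAVA 1.7, and the versions of STAR, BWA and HTSeq are not given in the sources used here. The deposited values are raw counts per gene, without normalization. Files were assigned to libraries by the sample title they carry, and this was checked against the CPM columns of a table of the study, where the ratio to the counts was constant for 1 library (coefficient of variation at most 0.000138%) and for no other (at least 170.1%).

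Counts were fitted with edgeR 4.0.16 (R 4.3.3) in a single quasi-likelihood model of the 5 cell types, with TMM factors and the filterByExpr filter, and p values were adjusted over 16891 genes by Benjamini and Hochberg's method. Pairwise tests were 2-sided. SE is the size of the log2 fold change divided by the square root of F. Alternatives were limma 3.58.1 with voom, the method of the study, DESeq2 1.42.0 without outlier handling or independent filtering, other factors and filters, fits of only the compared libraries, files as attached, the sets of libraries as a term and leaving out each library. The fits were tested on simulated counts with known 16-fold changes in cHCs alone. There most calls of DESeq2 were of unchanged genes, and more calls of limma-voom were false than its threshold allows. All 3 tools, edgeR included, missed most of the changed genes. The counts were drawn with dispersions that edgeR had estimated, which can favour edgeR, so the simulation cannot rank the tools. Levels per kilobase used exon lengths of GENCODE vM1 on mm9, and tables and figures were made with Python 3.11.15, pandas 2.3.3 and matplotlib 3.10.9.

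The members and the gene lists were chosen with earlier results of these data known. Named pathway genes were the 3 with the smallest adjusted p in the joint test of each list among those under 0.05, and likeness was Pearson's r of log2 CPM among all tested genes, with 3 genes given per called member. *Slc26a5*, *Slc17a8*, *Gjb2*, *Slc1a3*, *Fgfr3* and *Prox1* were named after their values were seen. The study's single-cell, qPCR and explant experiments were not analysed here.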

Additional observations from a re-analysis of the deposited data

How the results depend on the processing

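No paired analysis was possible because no replicate number is shared between cell types. The sets of libraries that the titles of SCs, cHCs and OHCs (P7) show were fitted as a term instead. Of 33 fold changes of members under 20 alternatives, 553 values kept direction and side of the threshold, 51 passed it anew, 40 no longer passed it and 8 reversed. With the files as attached to the records, 0 members were called in the joint test and in each pairwise comparison. In each pairwise comparison this fit also called 0 of all 16891 genes, so that the 0 is not particular to the members. Its count over all genes in the joint test is not given here. With these files, *Cdkn1a* (0.16), *Cdkn1c* (-5.71) and *Rb1* (-0.26) in cHCs minus SCs and *Cdkn1c* in OHCs (P7) minus cHCs (6.20) reversed. *Rb1* in cHCs minus SCs also reversed without SC replicate 11 (-0.47 to 1.18 over the fits without 1 library), and *Ccnd2* reversed with limma-voom (0.63), with the sets of libraries as a term (5.11) and without SC replicate 12 (-6.04 to 8.29), the SC library that alone held it.

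Limma-voom called 2 members in cHCs minus SCs, 1 in OHCs (P7) minus SCs, 1 in OHCs (P7) minus cHCs, 1 in OHCs (P22) minus cHCs, 3 in IHCs minus cHCs, 0 in OHCs (P22) minus OHCs (P7) and 1 in IHCs minus OHCs (P7). Of all 16891 genes it called 1065, 1172, 378, 930, 738, 110 and 367 in these comparisons, in the order given. DESeq2 called 1, 2 and 2 members in the first 3 of these, 5 in OHCs (P22) minus SCs, 3 in IHCs minus cHCs, 2 in OHCs (P22) minus OHCs (P7), 1 in IHCs minus OHCs (P7) and 2 in IHCs minus OHCs (P22). Its calls over all 16891 genes were 1764, 2682, 1125, 4160, 1376, 1640, 1330 and 2042, in the same order. With no filter on low counts, the calls were 1 in cHCs minus SCs, OHCs (P7) minus SCs, OHCs (P7) minus cHCs and IHCs minus OHCs (P7), and 2 in IHCs minus cHCs, OHCs (P22) minus OHCs (P7) and IHCs minus OHCs (P22). This fit called 952, 1503, 558, 604, 671, 844 and 1156 of 23415 genes in these comparisons, in the order given. With at least 10 counts in every library, which leaves *Cdkn1c*, *Ccnd1* and *Ccnd2* out, there were 2 in OHCs (P7) minus SCs, 0 in IHCs minus cHCs, 2 in OHCs (P22) minus OHCs (P7) and 1 in IHCs minus OHCs (P22). Over its 7279 genes the calls were 337, 99, 115 and 145, in the same order. RLE factors gave 0 in OHCs (P22) minus OHCs (P7), with 54 calls over all 16891 genes. Upper-quartile factors gave 1 in IHCs minus OHCs (P22), with 260 calls over all genes, and moved the median of all genes in cHCs minus SCs from 0.03 to 0.15. Only the compared libraries gave 1 in IHCs minus SCs, 1 in OHCs (P7) minus cHCs, 1 in OHCs (P22) minus cHCs and 0 in OHCs (P22) minus OHCs (P7). All-gene calls in these fits were 323 of 13726, 65 of 14593, 310 of 14263 and 23 of 13214. The sets of libraries as a term gave 1 in cHCs minus SCs, 1 in IHCs minus SCs, 1 in OHCs (P7) minus cHCs and 0 in OHCs (P22) minus OHCs (P7). With this term 260, 421, 68 and 54 of all 16891 genes were called there. Adding *Gm4694* to *Cdkn2d* gave 1 in OHCs (P7) minus SCs, with 577 of 16890 genes called. Over all genes, DESeq2 called the most of these fits in each comparison, 1764 in cHCs minus SCs against 311 with edgeR, 4160 against 1354 in OHCs (P22) minus SCs, 2726 against 537 in OHCs (P22) minus cHCs and 1376 against 156 in IHCs minus cHCs, while limma-voom called 1065 and no filter 952 in cHCs minus SCs. The causes of these shifts were not tested.

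Leaving out 1 library gave 3 to 4 calls in the joint test, 2 to 3 in OHCs (P22) minus SCs and in OHCs (P22) minus cHCs, 0 to 2 in IHCs minus SCs, 0 in IHCs minus OHCs (P7) and 0 to 1 in the other comparisons. A cell type with 1 library left was assumed to vary like the others. With 2 libraries per cell type and a common dispersion of 1.12, differences of several log2 units can miss the threshold.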
